A study of Mus musculus with 6 samples.

Results

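Cholesterol synthesis in TNFα-treated mouse embryonic fibroblasts was followed through 8 genes fixed by name: Hmgcs1, Idi1, Fdps, Fdft1, Sqle, Cyp51, Insig1 and Srebf2. Of these 8 genes, 7 were listed among the 21837 gene symbols of the deposited RefSeq table, each with 1 entry, and Hmgcs1, which has no row under that symbol in the table used here, was not analysed. All 7 passed the level filter (a mean of at least 1 ppm of the column sum over the 4 RNA libraries), which 11858 coding genes passed. Mouse embryonic fibroblasts (MEFs) are connective tissue cells grown from dissociated embryos. These were primary WT cells of the C57BL/6x 129 strain, taken from littermate embryos 13.5 days old, grown in DMEM with 10% FBS and passaged 4 times. RNA came from MEFs given no treatment and from MEFs treated with TNFα at 20 ng/ml for 1.5, 6 or 24 hr, with 1 library per condition. The columns of the RNA table carry library names without times, and the times given here rest on the study's own list of its libraries. TNFα is an inflammatory cytokine that activates the transcription factor NF-κB. Untreated MEFs also gave 1 H3K4me3 ChIP-seq library and 1 input library. The labels do not say how many embryos were combined. With 1 library per time there was no spread between replicates and no test, so the values below describe these libraries.

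Cells make cholesterol from acetyl-CoA through mevalonate, isoprenoid diphosphates, squalene and lanosterol. The transcription factor SREBP-2, product of Srebf2, turns on most enzymes of this route when sterols in the endoplasmic reticulum run low, and INSIG proteins hold SREBP and its escort SCAP back when sterols are plentiful. Fibroblasts make sterols for their own membranes, and the same route supplies farnesyl and geranylgeranyl groups, ubiquinone and dolichol.

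The 7 genes carried an active promoter mark before any TNFα was added. H3K4me3, a histone mark found at the starts of active genes, formed a peak over the annotated start of each of the 7, where 9797 of 11618 coding genes above the level filter with an annotated start had such a peak within 1 kb (84.3%). Positions are in mm9 with GENCODE starts. Sqle, on the plus strand at chr15:59146632-59162747, had the longest peak (5689 bases) and the most tags (2497, more than at 94.5% of coding starts with a peak). Cyp51, on the minus strand at chr5:4081145-4104746, had the highest enrichment, 95.8-fold over input by the authors' peak caller, above 92.2% of the peaks at coding starts. Idi1 (plus strand, chr13:8884852-8891641) and Fdft1 (minus strand, chr14:63763990-63796630) had the lowest, 22.8-fold and 22.7-fold. These 2 enrichments exceeded only 3.03% and 2.95% of the peaks at coding starts, and the deposited list holds no peak under 20-fold. Fdps (minus strand, chr3:88897514-88905881) had 44.0-fold enrichment, Insig1 (plus strand, chr5:28397952-28405201) 39.8-fold and Srebf2 (plus strand, chr15:81977696-82035806) 56.1-fold, against a median of 48.8-fold at coding starts. Each of the 7 summits lay downstream of the start, from 72 bases at Fdft1 to 499 bases at Idi1. No start of another coding gene fell inside any of the 7 peaks. Neither feature was counted over all coding starts with a peak, so neither can be read as a trait of the 7. With 1 ChIP library, differences in height between the genes have no replicate check.

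**Figure D1:**
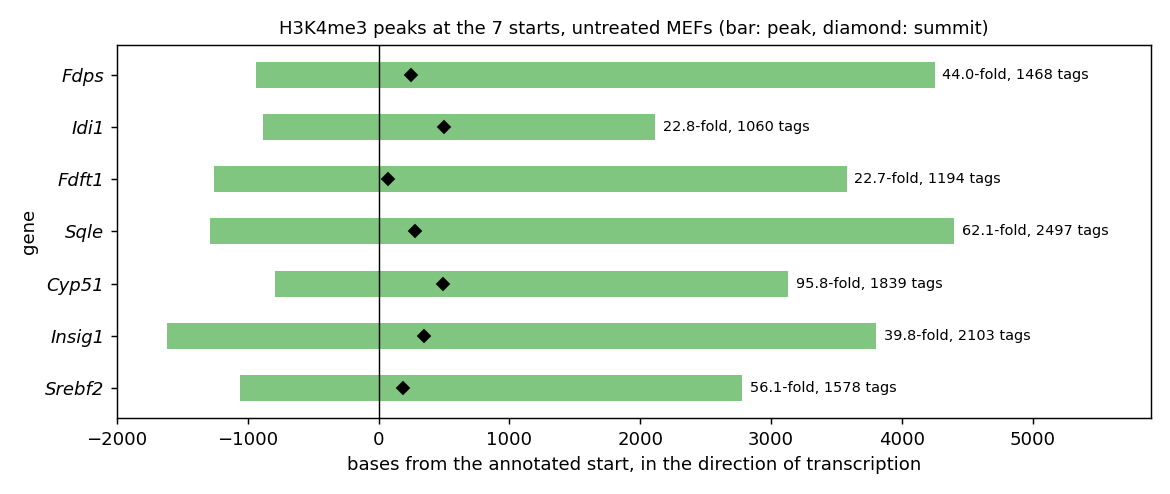
H3K4me3 peaks of untreated MEFs at the annotated starts of the 7 genes, drawn in bases from the start (x axis) in the direction of transcription, 1 gene per row. Bars span the deposited peak and diamonds mark its summit, with fold enrichment and tags beside each. Every bar crosses the start, and most of each bar lies downstream of it.

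Promoter sequences show what lies under these peaks, and the stretch just upstream of the start is given for 3 of the genes: the SREBP-2 gene, the gene of its inhibitor and the member whose values stood apart. The RefSeq promoter table (GRCm38.p6) matched Idi1, Cyp51, Insig1 and Srebf2, and each stretch was found once on its chromosome in mm9. It had no entry for Fdps, Fdft1 and Sqle. Capitals mark matches on either strand to the core of the sterol regulatory element (TCACCCCA), the CCAAT box bound by NF-Y (CCAAT), the GC box bound by Sp1 (GGGCGG) and the E-box (CACGTG).
Srebf2 (mm9, chr15:81977449-81977695, plus strand): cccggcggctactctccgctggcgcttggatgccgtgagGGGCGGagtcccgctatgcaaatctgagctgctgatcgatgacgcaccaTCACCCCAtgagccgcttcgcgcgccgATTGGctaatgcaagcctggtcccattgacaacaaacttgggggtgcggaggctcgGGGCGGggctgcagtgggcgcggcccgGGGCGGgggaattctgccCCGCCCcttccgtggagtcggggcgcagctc
Insig1 (mm9, chr5:28397702-28397951, plus strand): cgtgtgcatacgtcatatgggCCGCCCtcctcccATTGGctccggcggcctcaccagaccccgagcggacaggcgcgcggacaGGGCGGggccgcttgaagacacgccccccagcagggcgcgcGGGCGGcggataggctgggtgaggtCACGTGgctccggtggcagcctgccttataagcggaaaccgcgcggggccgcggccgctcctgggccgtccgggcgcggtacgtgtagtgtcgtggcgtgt
Idi1 (mm9, chr13:8884602-8884851, plus strand): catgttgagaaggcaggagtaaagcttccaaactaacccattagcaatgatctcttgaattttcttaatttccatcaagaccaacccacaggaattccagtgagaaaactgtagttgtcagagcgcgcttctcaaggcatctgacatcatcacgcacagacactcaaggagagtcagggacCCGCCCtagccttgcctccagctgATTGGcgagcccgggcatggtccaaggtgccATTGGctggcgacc

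The Srebf2 stretch held the core of a sterol regulatory element 162 to 155 bases before the RefSeq start and a CCAAT box, on the other strand, 135 to 131 bases before it. That 8-letter core was found in 441 of 32851 promoters of the table (1.34%, over the 250 bases before the start). It was in none of the windows of Idi1, Cyp51 and Insig1. Insig1 had an E-box 101 to 96 bases before its start, a motif present in 6.02% of promoters. All 4 windows had a CCAAT box and a GC box, which 33.8% and 32.7% of promoters held. Idi1 had 2 CCAAT boxes, both within 45 bases of the start. No match to the κB consensus was found in the 4 windows, and 7.25% of all promoters had one. These matches describe letters in a window. The 4 windows lay wholly inside the H3K4me3 peaks.

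The libraries differed as a whole, and this bears on every value that follows. The median log2 ratio of the 11858 coding genes to the untreated library was 0.50, -0.73 and 0.14 after 1.5, 6 and 24 hr, so each gene is given as deposited and relative to that median. Ratios also moved with base composition. At 1.5 hr the median was 1.38 in the twentieth of coding genes with the lowest GC content and -0.76 in that with the highest; at 6 hr these were -0.10 and -0.90, and at 24 hr 0.93 and -0.98. With 1 library per time this trend and the treatment cannot be told apart, and a further value, relative to the 581 or 582 coding genes of like GC content, stands beside the others. Columns R1 and R2 of a library held equal read numbers in 28.4% to 34.0% of low entries and were not used as replicates, and their difference is given as reading error only. The members were read deeply, with about 167 to 3565 reads each in the R1 column of a library. The widest exact (Clopper-Pearson) 95% counting interval of a member's log2 ratio was ± 0.27, and it covers counting error only. In bulk RNA, fewer cells of a type and less RNA per cell cannot be told apart. The treatment could be read in the data: the NF-κB targets Nfkbia, Tnfaip3, Ccl2 and Cxcl10 had log2 ratios of 4.50, 5.81, 6.60 and 6.64 at 1.5 hr. Untreated levels of Nfkbia and Ccl2 were 35.8 and 20.9 ppm. Tnfaip3 and Cxcl10 were at 0.80 and 0.86 ppm untreated and passed the level filter only through the treated libraries. Fibroblast markers were 10 of 10 above the filter, while no endothelial or hepatocyte marker passed. Of 4 epithelial markers 1 passed, Krt18 at 41.1 RPKM untreated, with Epcam listed at 0 in every library, and their summed level was 21.4 to 49.1 RPKM. Of 5 adipocyte markers 2 passed, with Adipoq listed at 0 in every library. These were Fabp4, at 107, 301, 96.9 and 214 RPKM at 0, 1.5, 6 and 24 hr, and Lipe, at 106, 45.7, 41.4 and 48.8 RPKM. Macrophage markers were 7 of 7 above the filter, with summed levels of 3300.0, 16462, 3205 and 8106 RPKM at 0, 1.5, 6 and 24 hr, mostly Lyz2. Lyz2 alone read 2257, 14668, 2692 and 7187 RPKM, whereas Csf1r read 295, 287, 90.1 and 124 and Cd68 605, 823, 202 and 312. At 24 hr 2 of the 7 were at least 2-fold higher as deposited and 1 lower, beside 17.2% and 14% of coding genes. The part of cells carrying any of these markers in the members' values was not tested.

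In untreated MEFs the 7 genes spanned a 9.92-fold range of level. RPKM is a value per transcript length, so the genes can be set beside each other, on the scale of this table only. Fdps was highest at 749 RPKM, followed by Srebf2 at 637, Fdft1 at 450, Cyp51 at 164, Sqle at 145, Insig1 at 138 and Idi1 at 75.5. Sqle and Insig1 could not be ordered, since R1 and R2 read 147 and 143 for Sqle and 132 and 144 for Insig1. The other neighbours in this order did not overlap between columns. Fdps was above 89.8% of coding genes and Idi1 above 44.6%. Idi1 was the lowest of the 7 at 0 and 1.5 hr and the second lowest, after Insig1, at 24 hr. At 6 hr Insig1 and Cyp51 were lower than Idi1. Idi1 and Sqle could not be ordered at 6 hr, where R1 and R2 read 125 and 118 for Idi1 and 119 and 108 for Sqle.

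**Figure D2:**
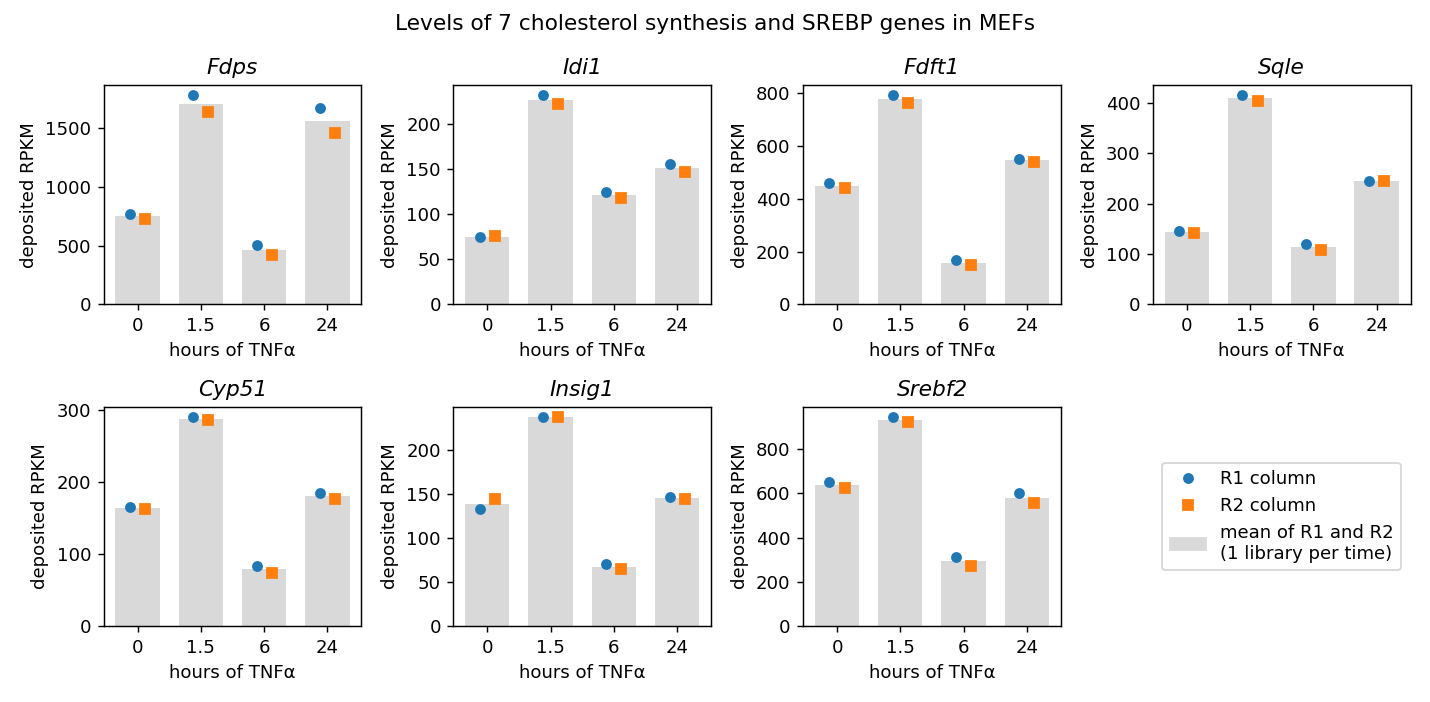
Deposited RPKM (y axis, from 0, own scale per gene) of the 7 genes at 0, 1.5, 6 and 24 hr of TNFα (x axis), 1 library per time. Bars are the mean of columns R1 and R2 and points the columns. All 7 bars are highest at 1.5 hr, and 6 of the 7 are lowest at 6 hr, the exception being Idi1.

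Idi1 and Fdps act on the isoprenoid diphosphates. Idi1 encodes the isomerase that turns isopentenyl diphosphate into dimethylallyl diphosphate. Its level was 75.5 RPKM in untreated MEFs and 227, 122 and 152 RPKM after 1.5, 6 and 24 hr. It was the only one of the 7 genes above its untreated level at all 3 times as deposited. The log2 ratios were 1.59, 0.69 and 1.01, and relative to the coding median they were 1.09, 1.42 and 0.87. At 6 hr its ratio exceeded that of 96.6% of coding genes. Idi1 is also the member with the lowest GC content, 41.5%, which only 4.74% of coding genes fell under. Relative to genes of like GC content its log2 ratios were 0.21, 0.79 and 0.079, so that the value at 6 hr remained the highest of the 7 while those at 1.5 and 24 hr were within its counting intervals (± 0.22 and ± 0.23). Within its GC bin Idi1 stood above 89.2% of genes at 6 hr. Reads of Idi1 may also be shared: 86.6% of its transcript matched elsewhere in mm9 at 95% identity or more in stretches of at least 500 bases, the longest 2494 bases at 99.3% identity in the pseudogene Gm13502 (chr2:53553399-53555892). Its values are therefore uncertain, since how such reads were counted is not given in the sources used here.

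Fdps encodes farnesyl diphosphate synthase, which makes the last precursor shared by sterols, protein prenylation and ubiquinone. Its level was 749 RPKM untreated and 1706, 460 and 1564 RPKM after 1.5, 6 and 24 hr. The 1.5 hr and 24 hr libraries were both above untreated in either column, by 2.28-fold and 2.09-fold. At 6 hr Fdps was lower by 0.70 on the log2 scale as deposited, which is 0.03 above the coding median. Relative to genes of like GC content (its own is 52.3%) the log2 ratios were 0.67, 0.14 and 0.94, so its value at 24 hr was the highest of the 7 on each of the 3 scales. Near copies of Fdps lie on chromosomes X, 6, 10 and 13, and 96.4% of its transcript matched them, at up to 98.8% identity in the pseudogene Gm3571 (chr10:93241356-93242512). The same uncertainty about shared reads holds.

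Fdft1, Sqle and Cyp51 take the pathway from farnesyl diphosphate to sterols. Fdft1 encodes squalene synthase, the first step committed to sterols. Its level was 450 RPKM untreated and 777, 158 and 547 RPKM after 1.5, 6 and 24 hr. At 6 hr it had the lowest log2 ratio of the 7, -1.51 as deposited, -0.78 relative to the coding median and -0.74 relative to genes of like GC content. Only 10.7% of coding genes were lower. At 1.5 hr its log2 ratio was 0.79, 0.29 and 0.22 on these 3 scales, and at 24 hr 0.28, 0.14 and 0.079. A match of 1618 bases at 97.4% identity, in the pseudogene Gm6781, covered 56.3% of the Fdft1 transcript.

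Sqle encodes squalene epoxidase, an oxygen-dependent step that limits flux into sterols. Its level was 145 RPKM untreated and 409, 114 and 245 RPKM after 1.5, 6 and 24 hr. Columns R1 and R2 gave the same log2 ratio at 1.5 hr, 1.50 in both. Relative to the coding median Sqle was higher at all 3 times, by 1.00, 0.38 and 0.62, and relative to genes of like GC content by 0.75, 0.34 and 0.40, although it was below untreated at 6 hr as deposited (-0.35). No stretch of at least 50 bases of its transcript matched elsewhere in mm9 at 95% identity, so shared reads of this kind do not enter its values.

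Cyp51 encodes lanosterol 14α-demethylase, the cytochrome P450 that starts the trimming of lanosterol. Its level was 164 RPKM untreated and 289, 78.9 and 181 RPKM after 1.5, 6 and 24 hr. As deposited its log2 ratios were 0.81, -1.06 and 0.14, and relative to the coding median 0.31, -0.33 and 0.001. Relative to genes of like GC content all 3 were negative, -0.20, -0.57 and -0.46, so that the sign at 1.5 hr depends on that correction. At 6 hr the fall past 2-fold as deposited was present in R2 (-1.15) and not in R1 (-0.97).

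Insig1 and Srebf2 regulate the pathway. Insig1, itself an SREBP target, encodes the sterol-sensitive anchor of SCAP in the endoplasmic reticulum. Its level was 138 RPKM untreated and 237, 67.4 and 145 RPKM after 1.5, 6 and 24 hr. The log2 ratios were 0.78, -1.03 and 0.07, with the widest gap between columns of any member at 6 hr, -0.91 in R1 and -1.16 in R2. Relative to the coding median they were 0.28, -0.31 and -0.07, and relative to genes of like GC content -0.08, -0.43 and -0.39. A match of 2040 bases at 97.9% identity on chromosome 3 (chr3:69767202-69769239, with no annotated gene) covered 76.7% of its transcript. Insig1 and Cyp51 had the closest profiles of the 21 pairs of members, at a Euclidean distance of 0.081 over the 3 log2 ratios.

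Srebf2 encodes the SREBP-2 precursor. Its level was 637 RPKM untreated and 933, 292 and 580 RPKM after 1.5, 6 and 24 hr. Its log2 ratio at 1.5 hr was the smallest of the 7 as deposited, 0.55, and 0.05 relative to the coding median. Srebf2 is the member with the highest GC content, 58.3%, and relative to genes of like GC content its log2 ratio at 1.5 hr was 0.91, the largest of the 7. At 6 hr it was -1.12 as deposited, -0.39 relative to the coding median and -0.23 relative to genes of like GC content. At 24 hr these were -0.13, -0.28 and 0.51, so the direction at 24 hr flips with the correction for GC content. Reads can be assigned to Srebf2 without a near copy, since no stretch of at least 50 bases matched elsewhere at 95% identity.

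**Figure D3:**
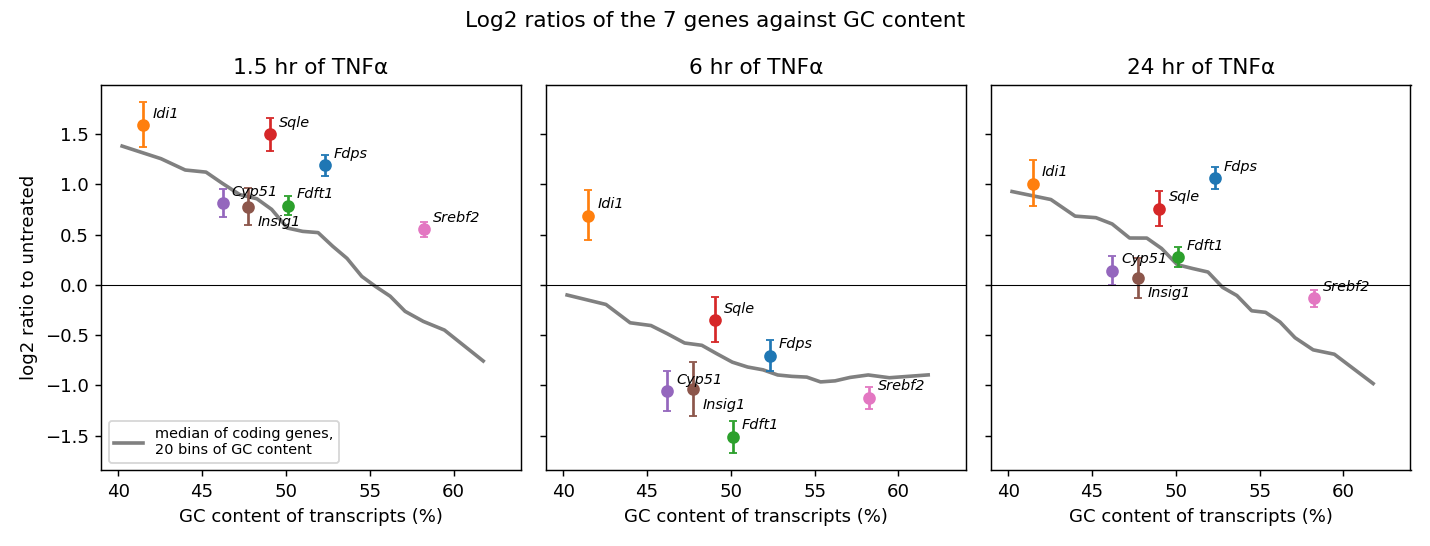
Log2 ratio to untreated (y axis) of the 7 genes against the GC content of their transcripts in percent (x axis), 1 panel per time. Points are deposited values with 95% counting intervals of the R1 reads drawn about them, and the grey line joins the median log2 ratios of coding genes in 20 bins of GC content. Idi1 and Srebf2 sit at opposite ends of the x axis, and at 6 hr the points farthest from the line are Idi1, above it, and Fdft1, below it.

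By their median the 7 genes were above untreated at 1.5 hr, below it at 6 hr and near it at 24 hr, as were coding genes in general. At 24 hr the log2 ratios of single members ranged from -0.13 to 1.06. The median log2 ratio of the 7 was 0.81, -1.03 and 0.28, beside 0.50, -0.73 and 0.14 for coding genes. At 1.5 hr 3 of 7 (Fdps, Idi1 and Sqle) were at least 2-fold higher as deposited and 0 lower, where 31.1% of coding genes were higher and 9.48% lower. At 6 hr 0 were higher and 4 (Fdft1, Cyp51, Insig1 and Srebf2) lower, beside 2.06% and 32.6%. At 24 hr 2 (Fdps and Idi1) were higher and 0 lower, beside 17.2% and 14%. Each of the counts 3, 4 and 2 exceeds what the background share gives for 7 genes by fewer than 2 genes. Of the 4 lower at 6 hr, 2 (Fdft1 and Srebf2) were past 2-fold in both columns. No library was repeated, so the shares have no error.

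Relative to the coding median fewer members passed 2-fold. At 1.5 hr these were Idi1 and Sqle (2.13-fold and 2.0-fold), beside a background of 15% higher and 18.8% lower. At 6 hr Idi1 alone passed (2.67-fold), beside 8.1% higher and 6.02% lower, and at 24 hr none did, beside 13.4% and 16.9%. Members above the coding median numbered 7 of 7 at 1.5 hr, 3 of 7 at 6 hr and 5 of 7 at 24 hr. Relative to genes of like GC content no member reached 2-fold in either direction at any time, with a background of 11.2% higher and 11.8% lower at 1.5 hr, 5.98% and 5.16% at 6 hr, and 11.1% and 10.8% at 24 hr. The closest to 2-fold on that scale were Fdps at 24 hr (1.91-fold) and Srebf2 at 1.5 hr (1.89-fold).

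**Figure D4:**
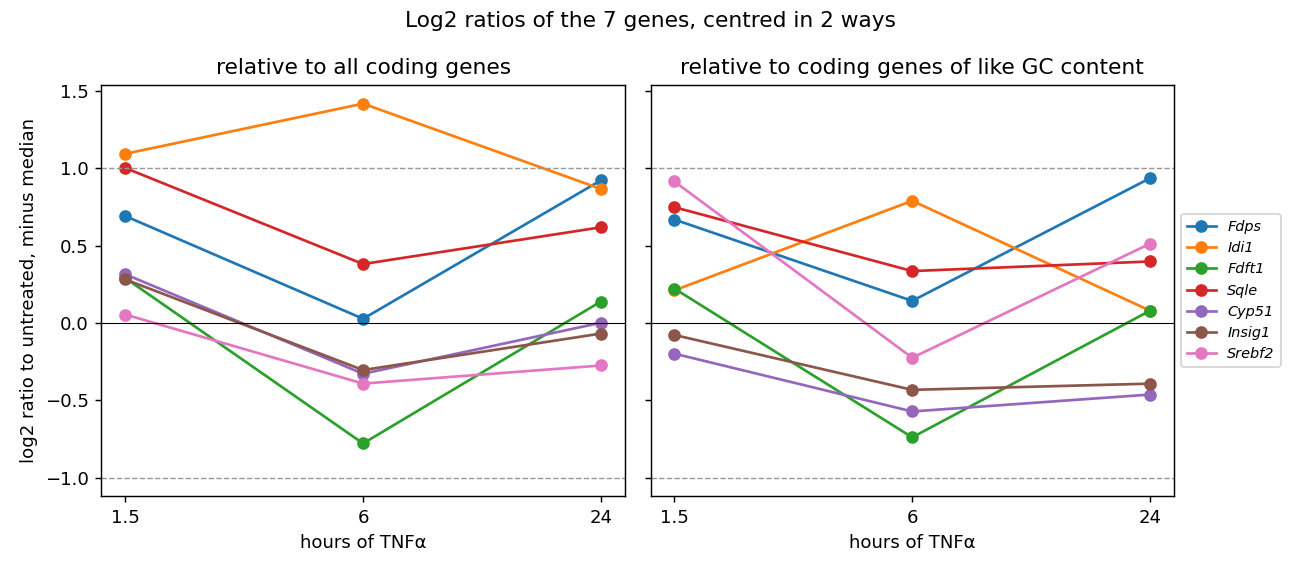
Log2 ratio to untreated of the 7 genes at 1.5, 6 and 24 hr (x axis, evenly spaced) after subtracting the median of all coding genes (left) or of coding genes of like GC content (right). Lines join the single libraries of one gene and dashed lines mark 2-fold. Idi1 leaves the 2-fold range on the left and stays inside it on the right, and Srebf2 moves from the lowest at 1.5 hr on the left to the highest on the right.

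Ratios between members within a library need no scaling between libraries. The level of Idi1 was 0.168 of that of Fdft1 in untreated MEFs, 0.292 at 1.5 hr, 0.768 at 6 hr and 0.277 at 24 hr. This ratio was thus highest at 6 hr, 4.59 times its untreated value, with R1 and R2 reading 0.750 and 0.789. Neither Srebf2 nor Sqle has near copies. Against Srebf2 the ratio of Idi1 was 0.119 untreated and 0.416 at 6 hr, 3.51 times its untreated value. Against Sqle the ratio of Idi1 was 0.522 untreated and 1.07 at 6 hr, 2.05 times its untreated value. Srebf2 is farther from Idi1 in GC content (58.3% against 41.5%) than Sqle is (49.0%). The median log2 ratios of coding genes of like GC content at 6 hr were -0.10 for Idi1, -0.68 for Sqle and -0.90 for Srebf2. Fdps over Fdft1 was 1.66, 2.19, 2.91 and 2.86 at 0, 1.5, 6 and 24 hr, so Fdps was higher relative to the next enzyme at each time after treatment than before. Fdft1 and Idi1 were the members farthest apart, at a distance of 2.45. GC content still enters such ratios where the 2 genes differ in it.

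Coding genes with profiles near those of the members were also listed. They are the nearest of many genes, so their distances cannot be set against those between members. Whether the members move together cannot be read from them. Over the 3 log2 ratios of 11847 coding genes, the 10 nearest to the median profile were Akr1a4, Ankrd44, Cd99l2, Lbr, Anapc4, Elp3, Lsm2, Tspan14, Dnttip1 and Ogdh, at distances of 0.034 to 0.062. Nearest to Insig1 were Ap2b1, Pelo and Papd7 (0.049 to 0.058) and to Srebf2 Tgif2, Hif1an and Hmgn1 (0.030 to 0.050). Neither of the last 2 lists holds another member.

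The rest of the pathway was read from 6 lists, with counts as deposited first and counts relative to genes of like GC content after them. The shares of coding genes past 2-fold to read them against are, as deposited, 31.1% higher and 9.48% lower at 1.5 hr, 2.06% and 32.6% at 6 hr, and 17.2% and 14% at 24 hr. After correction for GC content they are 11.2% and 11.8%, 5.98% and 5.16%, and 11.1% and 10.8%.

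Among 13 further genes of cholesterol synthesis 3 were at least 2-fold higher at 1.5 hr, a share below the 31.1% of coding genes: the sterol 4α-decarboxylase gene Nsdhl (log2 ratio 1.64), Hsd17b7 (1.28) and Sc5d, the sterol C5-desaturase (2.19). None was lower. At 6 hr 6 were lower, namely Acat2 (-1.53), Mvk (-1.15), Pmvk (-1.47), Mvd (-1.57), Ebp (-1.49) and Dhcr7 (-1.29), and 0 higher. At 24 hr Nsdhl, Hsd17b7 and Sc5d were higher (1.54, 1.01 and 1.49) and Pmvk lower (-1.31). After correction for GC content 1 of the 13, Sc5d, stayed past 2-fold at 1.5 hr (1.05) and 0 at 6 and 24 hr. Nsdhl and Sc5d were, like Idi1, above untreated at 6 hr, with log2 ratios of 0.39 and 0.40 as deposited and 0.87 and 0.78 relative to genes of like GC content. The log2 ratios of Sc5d in R1 and R2 differed by 0.40, 0.43 and 0.39 at 1.5, 6 and 24 hr. At 6 hr this gap exceeded its value as deposited.

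The isoprenoid branch leads away from sterols. Of its 8 genes 4 were at least 2-fold higher at 1.5 hr (Ggps1 1.01, Pdss1 2.26, Pggt1b 1.63 and Coq2 1.25), and Fntb (-1.68) and Dhdds (-1.11) were lower at 6 hr. Pdss1, a subunit of the synthase that builds the side chain of ubiquinone, was higher at all 3 times (2.26, 1.40 and 2.0 on the log2 scale). Its untreated level was 8.35 RPKM, or 0.93 ppm, so Pdss1 passed the filter of 1 ppm only through the treated libraries. Such a filter favours a call of higher, and the Pdss1 calls on either scale carry this limit. The log2 ratios of Pdss1 in R1 and R2 differed by 0.29 at 1.5 hr. Pggt1b was also higher at 24 hr (1.43), where the list's 2 higher genes stand beside 17.2% of coding genes, and the 4 at 1.5 hr beside 31.1%. After correction for GC content Pdss1 (1.14, 1.81 and 1.33) passed 2-fold at all 3 times and Coq2, the next enzyme of ubiquinone synthesis, at 1.5 and 24 hr (1.16 and 1.09), whereas Ggps1 changed sign at 1.5 hr (-0.24). Pdss2, the other subunit of the synthase of Pdss1, was lower on that scale at 1.5 hr (-1.72) and was the only gene of the list past 2-fold in that direction at any time. Pggt1b, Fntb and Dhdds were within 2-fold there at all 3 times.

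Genes that process SREBP were 8 of 9 listed, with no row for Ufd1l. At 1.5 hr Insig2, Rnf139 and Erlin2 were at least 2-fold higher (1.75, 1.43 and 1.04), and after correction for GC content Insig2 alone (1.00), so 3 of 8 stand beside 31.1% of coding genes and 1 of 8 beside 11.2%. The log2 ratio of Rnf139 at 1.5 hr differed by 0.69 between R1 and R2. None of the 8 passed 2-fold at 6 or 24 hr on either scale. Srebf1, which encodes SREBP-1, had log2 ratios of -0.08, -0.83 and -0.38 as deposited, and the sign turned at all 3 times relative to genes of like GC content (0.37, 0.09 and 0.31).

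Sterol uptake and transport held 8 genes. Stard4 (1.24), Scarb1 (1.19) and Soat1 (1.00) were at least 2-fold higher at 1.5 hr and Mylip, an LXR-induced ubiquitin ligase, lower at all 3 times (-1.08, -2.0 and -1.51). The Mylip values were also past 2-fold relative to genes of like GC content (-1.83, -1.31 and -1.87). On that scale Scarb1 was past 2-fold at 1.5 and 24 hr (1.45 and 1.45), Stard4 was not (0.39 at 1.5 hr), and Soat1 changed sign (-0.12). Lrp1 was lower at 24 hr as deposited (-1.33) and within 2-fold relative to genes of like GC content (-0.96). At 1.5 hr the 3 of 8 higher stand beside 31.1% of coding genes, and the 1 of 8 left after the correction beside 11.2%.

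Among the 6 of 7 genes of the LXR receptors, their targets and sterol efflux that were above the filter, Ch25h, which makes the oxysterol 25-hydroxycholesterol, was at least 2-fold higher at all 3 times. Its level was 62.6 RPKM untreated and 689, 148 and 375 RPKM after 1.5, 6 and 24 hr, and its log2 ratios relative to genes of like GC content were 2.89, 2.01 and 2.38. Abcg1 was higher at 1.5 and 24 hr (1.66 and 1.47). Apoe was lower at all 3 times, from 11953 RPKM untreated to 4320, 3378 and 835, while Abca1 stayed within 2-fold (0.51, -0.71 and -0.24). Nr1h2 and Cyp27a1 were lower at 6 hr (-1.23 and -1.38). Relative to genes of like GC content Abcg1 was past 2-fold at all 3 times (1.40, 1.16 and 1.58), Apoe at 1.5 and 24 hr (-1.02 and -3.15) but not at 6 hr (-0.90), and Nr1h2 and Cyp27a1 were within 2-fold at 6 hr (-0.33 and -0.47). At 1.5 hr 2 of 6 were thus higher on both scales, beside 31.1% and 11.2% of coding genes.

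Of the 12 of 13 fatty acid genes driven by SREBP-1 that were above the filter, 6 were at least 2-fold higher at 1.5 hr: Scd1 (1.52), Scd2 (1.24), Acly (1.02), Elovl6 (1.03), Elovl5 (1.95) and Me1 (2.17). At 6 hr Acaca, Acss2 and Fads1 were lower (-1.64, -1.12 and -1.24), and at 24 hr Elovl5 and Me1 were higher (1.15 and 2.05). After correction for GC content Me1, which makes NADPH for lipid synthesis, was the only one past 2-fold at 1.5 hr (1.16), and Elovl6 changed sign (-0.12). The 6 of 12 as deposited stand beside 31.1% of coding genes and the 1 of 12 beside 11.2%. Me1 was past 2-fold on the corrected scale at 6 and 24 hr too (1.01 and 1.45). Acaca, Acss2 and Fads1 were not past it at 6 hr (-0.96, -0.23 and -0.40), nor was Elovl5 at 24 hr (0.55), while at 24 hr Fads2 was higher (1.16) and Acaca lower (-1.09). Fasn, the fatty acid synthase, had log2 ratios of -0.29, -0.98 and -0.97 as deposited and -0.02, -0.06 and -0.44 after the correction.

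Over the 6 lists together 21 of 55 genes above the filter were at least 2-fold higher and 2 lower at 1.5 hr, beside 31.1% and 9.48% of coding genes. At 6 hr these were 2 and 15, beside 2.06% and 32.6%, and at 24 hr 9 and 4, beside 17.2% and 14%. The medians of the 55 log2 ratios were 0.79, -0.78 and 0.31. With GC content corrected 8 were higher and 3 lower at 1.5 hr (11.2% and 11.8% of coding genes), 4 and 1 at 6 hr (5.98% and 5.16%), and 7 and 3 at 24 hr (11.1% and 10.8%).

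**Figure D5:**
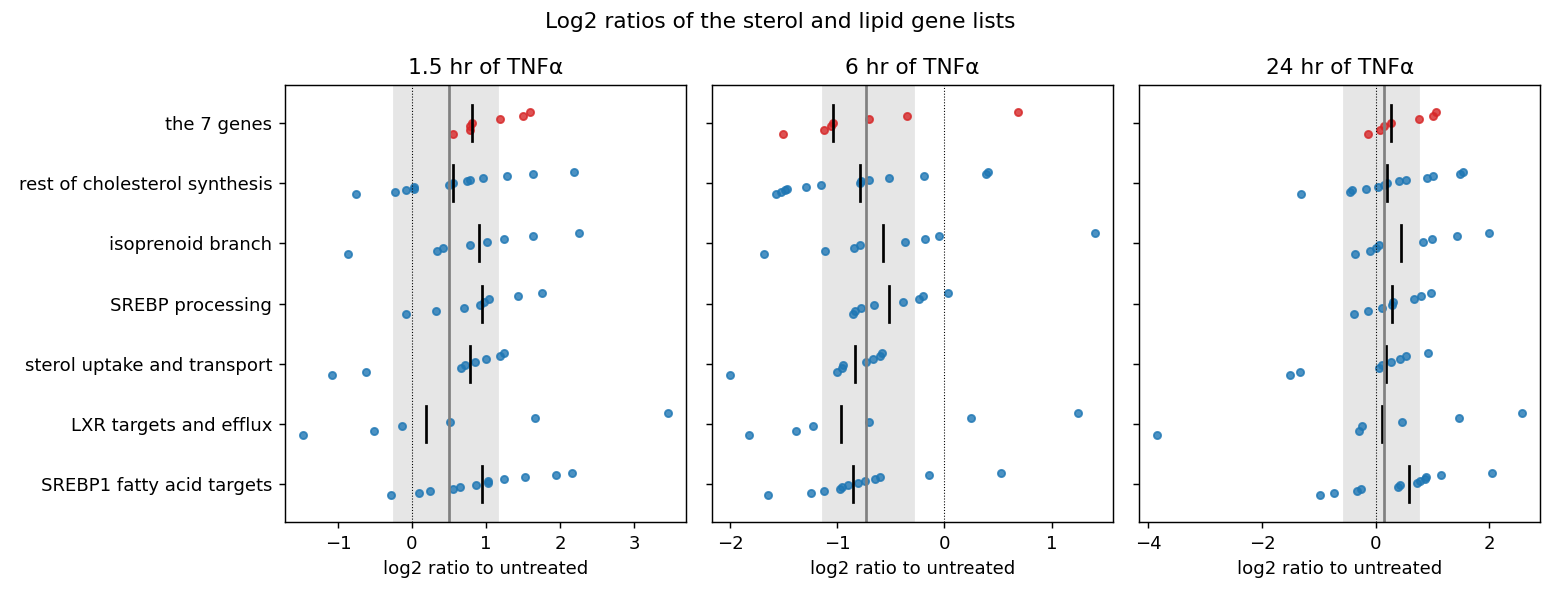
Log2 ratio to untreated as deposited (x axis, own range per panel) of the 7 genes (red) and of the genes of 6 sterol and lipid lists above the level filter (blue) at each time, 1 row per list. Black ticks are list medians, the grey line and band the median and quartiles of coding genes, and points are spread within a row for legibility. List medians lie inside the grey band at all 3 times.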

How the data were processed

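RNA of 4 libraries and H3K4me3 ChIP with input were measured in MEFs. The authors mapped RNA reads to mm9 with TopHat and computed RPKM per RefSeq transcript with their own script. The deposited RPKM table gives columns R1 and R2 per library on a scale of its own, on which 1 read was worth about 955 divided by the transcript length in the untreated R1 column. For ChIP the authors aligned reads with Bowtie and made peaks in MACS, and the deposited peak list gives counts of tags, fold enrichment (a ratio), FDR in percent and a score made from the p-value. One label field of the 24 hr RNA sample describes a ChIP protocol, while all its other labels name RNA, and it was used as RNA. The names of the 8 value columns hold a library number and no time. They were matched to samples through the study's supplementary list of sequencing depth, which pairs library numbers with times, and the labels alone do not settle this match.

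Some genes of the lists are not reported here and enter no count of them. The members and lists were chosen with earlier results of these data known, and the motifs after their sequences had been seen. R1 and R2 were averaged, and 1 entry was kept per symbol (highest mean of the columns), with no pseudocount. Coding genes had to average at least 1 ppm of the column sum over the 4 libraries. A gene was called at 2-fold, and no p was computed, since there is 1 library per time. GC content was the mean over a gene's GENCODE coding transcripts, in 20 bins, known for 98.0% of coding genes above the filter. Named were all members, genes of the other lists past 2-fold at any time, Srebf1, Abca1, Fasn and Scd1, the 10 genes nearest to the median profile, the 3 nearest to Insig1 and to Srebf2, and 4 NF-κB targets. Read numbers were approximated from the worth of 1 read and the shortest coding transcript. Near copies were sought with BLAST+ 2.17.0. Other tools were Python 3.11.15, pandas 2.3.3, numpy 2.4.6, scipy 1.17.1 and pysam 0.24.0. Scaling by the median of ratios and by the trimmed mean, and the 2-fold calls, were tried on simulated counts. These had a uniform factor per library and no trend with GC content, so they do not check the centring by GC content. Alternatives were 4 other scalings, each column alone, a pseudocount of 8.93 RPKM, the mean of all transcripts, centring by GC content, folds of 1.5 and 3, no level filter, and other peak rules.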

Additional observations from a re-analysis of the deposited data

Results flagged for a closer look

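Opposite directions at 2 times were found for 6 of the 7 genes, each with counting intervals that do not reach 0: they were above untreated at 1.5 hr and below it at 6 hr as deposited. From 1.5 to 6 hr the log2 ratio changed by -1.89 for Fdps, -2.30 for Fdft1, -1.85 for Sqle, -1.87 for Cyp51, -1.81 for Insig1 and -1.67 for Srebf2. These differences were not tested, because only 1 library represents each time. Over the same interval the median of coding genes went from 0.50 to -0.73, and relative to it Fdps and Sqle were above 0 at both times. How many coding genes share this pattern was not counted, so the 6 of 7 cannot be read as a trait of the members. Relative to genes of like GC content Fdps (0.67 and 0.14) and Sqle (0.75 and 0.34) were above 0 at both times. Cyp51 (-0.20 and -0.57) and Insig1 (-0.08 and -0.43) were below 0 at both on that scale. Fdft1 (0.22 and -0.74) and Srebf2 (0.91 and -0.23) kept opposite directions there.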

How the results depend on the processing

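No paired analysis was possible because each condition has 1 library, and no replicate could be left out. Of 189 values of single members under the alternatives, 171 kept their sign, 104 moved by less than their counting interval and 85 by more. Each member has 1 entry, so the mean of all transcripts could not change any member's value. The values under that setting are among the 171 and the 104 by construction. Signs changed for Cyp51 and Insig1 at 1.5 hr, Fdps and Sqle at 6 hr, and Cyp51, Insig1 and Srebf2 at 24 hr. Idi1 was above untreated at 6 hr under every alternative run, from 0.63 to 1.52, and Fdft1 below it, from -1.56 to -0.68.

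The median log2 ratio of the members was 0.56 at 1.5 hr and -0.21 at 6 hr after scaling to the column sum. Median-of-ratios scaling over coding entries gave 0.31, -0.31 and 0.14 at the 3 times, that over all entries 0.34, -0.31 and 0.17, the trimmed mean 0.32, -0.31 and 0.14, and centring by GC content 0.22, -0.23 and 0.079. The count of members at least 2-fold higher at 1.5 hr was 0 with GC centring, 6 at 1.5-fold and 1 at 3-fold. At 6 hr 1 member was higher under each of the 4 scalings and at 1.5-fold. Lower at 6 hr were 0 under the 4 scalings, GC centring and 3-fold, and 2 with R1 alone or the pseudocount. Higher at 24 hr were 0 under both medians of ratios, the trimmed mean, GC centring and 3-fold, and 1 with R2 alone or the pseudocount. With fold enrichment of at least 40, 4 members kept a peak. The share of coding starts at that setting was not computed. Peaks at coding starts had a lower quartile of 36.0-fold and a median of 48.8-fold.

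Of the 55 other pathway genes, 12 were higher at 1.5 hr after scaling to the sum, 10 under each of the other 3 scalings, 8 with GC centring, 33 at 1.5-fold and 9 at 3-fold. Lower at 1.5 hr were 4 after scaling to the sum, 6 over coding entries and with the trimmed mean, 5 over all entries and at 1.5-fold, 1 with R2 alone or the pseudocount and 0 at 3-fold. Higher at 6 hr were 6 after scaling to the sum, 5 under the other 3 scalings, 4 with GC centring, 1 with the pseudocount and 0 at 3-fold. Lower at 6 hr were 1 after scaling to the sum or GC centring, 2 under the other 3 scalings, 39 at 1.5-fold and 4 at 3-fold. The median ratio of coding genes at 6 hr, 0.60, was itself past 1.5-fold lower. At 24 hr 20 were higher at 1.5-fold and 3 at 3-fold, and 1 was lower at 3-fold. For these counts and those of the members, shares of coding genes were computed only at 2-fold. Above the filter they cover values as deposited, relative to the coding median and with GC centring, so the other counts have no background. Without the level filter the background was 17.4% lower at 1.5 hr, 5.10% higher at 6 hr and 22.1% lower at 24 hr. The cause of these moves was not tested. At about 167 reads, the lowest depth of a member in a library, counting error alone spanned ± 0.27 on the log2 scale. This is not a limit of detection, since variation between libraries could not be measured with 1 library per time.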
